A study of Mus musculus with 11 samples.

Results

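Glycolysis turns glucose into pyruvate and lactate in the cytosol, and much of the pathway is under the control of the hypoxia-inducible factor HIF, a transcription factor that is destroyed while oxygen is plentiful. The group described here holds 34 genes chosen by name, and all 34 were present in both deposited tables, of 19259 genes in the table of the ANXA2 knockout and 19801 in that of the ANXA5 knockout. Of the members, 33 were found under the name given, and Ero1l was found as Ero1a, its official symbol. They were divided into 19 glucose and lactate transporters and glycolytic enzymes and 15 hypoxia-induced regulators. Aldoa had 2 rows in each table, and the row of the main gene (the other held 18.3 to 21.5 normalised reads on average) was used.

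The cells were primary mesenchymal stromal cells from the bone marrow of mice, which can form bone, fat and cartilage and sustain blood formation. Without any treatment, RNA was sequenced from 4 wild type libraries, 3 libraries with a knockout of ANXA2 and 4 with a knockout of ANXA5, all on the C57/BL6 background. Annexins bind to membrane phospholipids when calcium is present. The labels give neither the deleted exons nor the cells or tissues in which each deletion acts. The deposited tables were scaled separately, each knockout together with the wild type, so the same wild type library has a different value in each comparison. The values are normalised reads, that is reads of a gene divided by a size factor of the library. The ANXA2 knockout libraries are named 1, 3 and 4 after their columns, which are not the numbers of the titles.

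Each library held 23.3 to 35.7 M reads over the genes of its table. Anxa2 ranged from 7159 to 10427 normalised reads in the ANXA2 knockout against 27947 to 31163 in the wild type, and Anxa5 from 2295 to 2426 in the ANXA5 knockout against 23423 to 27595. Nothing in the labels says that replicates came from different animals or cultures, and the p-values then measure only how far these samples spread, which may be technical in part. Each pair of replicates differed beyond sampling noise (chi-square of 29.3 to 108 for each degree of freedom). Xist, which inactivates an X chromosome where a cell has more than 1, ranged from 0.959 to 1997 normalised reads within the wild type in the ANXA2 table. Wild type libraries 1 and 2 had 1829 and 1997, and libraries 3 and 4 had 1.16 and 0.959. The 4 wild type libraries were thus not all repeats of 1 sample. In the wild type of the ANXA2 table the highest of 12 stromal markers, Col1a2 (a collagen chain), averaged 256555 normalised reads and the highest of 10 neutrophil markers, Ngp (a granule protein), 121173. Markers of stromal and of blood cells were thus both read, and in bulk samples fewer cells of a type and less RNA per cell cannot be told apart.

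In normal oxygen the prolyl hydroxylases of the Egln family mark the HIF alpha subunits for removal, and in hypoxia these subunits accumulate and bind DNA at short sites with the core ACGTG or GCGTG. HIF is known to raise the transcription of glucose transporters, of most glycolytic enzymes and of genes that redirect pyruvate, adapt mitochondria and modify collagen. Bone marrow is known as a tissue of low oxygen, and marrow stromal cells are known to rely strongly on glycolysis. To show what such sites look like in the members, the 250 bases before the RefSeq start (build GRCm38.p6) are given for 6 of them that the results return to, 5′ to 3′ on the strand of the gene, with the matches on either strand in capitals. CACGT and CACGC are the matches read on the opposite strand, and CACGTG is a match on both strands at once, which is also the E-box read by other factors.
Pgk1 (chrX:106186850-106187099, + strand): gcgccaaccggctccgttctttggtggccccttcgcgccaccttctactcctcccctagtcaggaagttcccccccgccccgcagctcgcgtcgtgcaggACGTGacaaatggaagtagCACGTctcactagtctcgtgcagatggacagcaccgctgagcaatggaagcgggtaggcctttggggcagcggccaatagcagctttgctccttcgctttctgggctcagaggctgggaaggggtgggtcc
Ldha, the start with the smaller coordinate (chr7:46845554-46845803, + strand): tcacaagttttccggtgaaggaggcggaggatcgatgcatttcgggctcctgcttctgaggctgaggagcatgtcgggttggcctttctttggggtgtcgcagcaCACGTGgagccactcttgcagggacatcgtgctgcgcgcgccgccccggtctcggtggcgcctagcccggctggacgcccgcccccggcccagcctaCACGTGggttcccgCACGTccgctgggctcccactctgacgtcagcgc
Hk2 (chr6:82774455-82774704, - strand): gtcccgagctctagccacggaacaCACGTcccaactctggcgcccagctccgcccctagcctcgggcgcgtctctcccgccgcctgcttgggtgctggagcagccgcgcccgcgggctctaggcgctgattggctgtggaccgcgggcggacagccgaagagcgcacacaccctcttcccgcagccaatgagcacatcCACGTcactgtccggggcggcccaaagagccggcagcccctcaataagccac
Pfkfb3, the start with the smaller coordinate (chr2:11502091-11502340, - strand): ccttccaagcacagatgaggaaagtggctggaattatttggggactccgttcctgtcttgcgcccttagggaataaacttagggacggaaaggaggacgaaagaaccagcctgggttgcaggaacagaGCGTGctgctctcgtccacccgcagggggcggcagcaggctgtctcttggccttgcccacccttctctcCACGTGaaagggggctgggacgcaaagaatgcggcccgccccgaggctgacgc
Bnip3 (chr7:138909507-138909756, - strand): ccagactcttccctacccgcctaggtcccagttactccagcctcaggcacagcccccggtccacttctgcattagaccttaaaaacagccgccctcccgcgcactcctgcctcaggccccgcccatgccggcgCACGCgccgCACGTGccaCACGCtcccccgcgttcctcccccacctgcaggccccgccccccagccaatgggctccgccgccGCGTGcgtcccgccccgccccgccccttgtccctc
Egln3 (chr12:54203875-54204124, - strand): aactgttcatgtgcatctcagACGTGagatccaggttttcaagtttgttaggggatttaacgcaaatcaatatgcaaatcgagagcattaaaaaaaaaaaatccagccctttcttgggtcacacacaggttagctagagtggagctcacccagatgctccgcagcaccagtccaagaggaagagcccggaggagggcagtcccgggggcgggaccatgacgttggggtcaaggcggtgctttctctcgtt

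In Pgk1 the first of both matches begins 150 bases before the start, in Ldha the nearest upstream matches lie 48 to 34 bases before it, and in Egln3 a single match lies 229 bases before it. The window searched in all genes ran from 250 bases before to 50 after the start, and 31 members had at least 1 such window. A match to ACGTG or GCGTG on either strand stood in 29 of these 31 members (93.5%), against 46.7% of the 27025 genes with a window. Member windows were richer in G and C, with a median of 64.8% against 52.7% over all windows. Among windows with a G and C content between 56.6 and 69%, the middle range of the members, 21 of 24 member windows (87.5%) held a match, against 63.5% of 9171 windows of all genes. Gpi1 and Tpi1, which encode the isomerases of the pathway, had no match in their only window. A match is a description of these letters and no evidence that a factor binds there.

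The wild type levels spanned from the terminal enzymes down to rare isozymes and sensors. Per kilobase of merged exons, in the table of the ANXA5 knockout, Ldha, which encodes the lactate dehydrogenase subunit that makes lactate, stood highest at 6532 ± 435 normalised reads (SD, n = 4). Pkm, the pyruvate kinase, followed at 5893 ± 941 and Aldoa, the main aldolase, at 5178 ± 255, and the ranges of neighbours in this order overlapped. Gapdh at 3857 ± 429 was separated from both its neighbours, with Eno1, the enolase, next at 2927 ± 345 per kilobase. Slc16a3, the exporter of lactate, stood at 2158 ± 832, with a range of 1239 to 2998 over the 4 libraries. The abundant enzymes Gapdh, Ldha, Eno1, Tpi1, Pgk1, Pgam1 and Aldoa have near-identical processed copies in the mouse genome, so reads could have been split and these levels are uncertain. The order also depends on the length used, since merged exons pool all annotated transcripts. Before division by length, Gapdh averaged 15940 normalised reads and Aldoa 15073, the reverse of their order above.

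Isozymes that catalyse the same step differed in level. Hk1, the hexokinase of most tissues, stood at 549 ± 46.5 per kilobase and Hk2, its hypoxia-inducible relative, at 178 ± 60.1. Of the phosphofructokinases, Pfkp stood at 400 ± 30, Pfkl at 258 ± 42.7 and Pfkm at 256 ± 27.8, the last 2 with overlapping ranges. Their merged exons held 13401, 6675 and 3340 bases. Before division by length they averaged 5361, 1724 and 855 normalised reads, so the nearness of Pfkl and Pfkm rests on the lengths used. Slc16a3 exceeded Slc16a1, the other lactate carrier, at 755 ± 99. Slc2a3 at 677 ± 161 and Slc2a1 at 512 ± 22.6, the glucose transporters, overlapped. Among the sensors, Egln1 stood at 550 ± 222 and Egln3 at 62 ± 14.1. Aldoc, the brain aldolase, was lowest of all members at 4.26 ± 1.9.

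**Figure D1:**
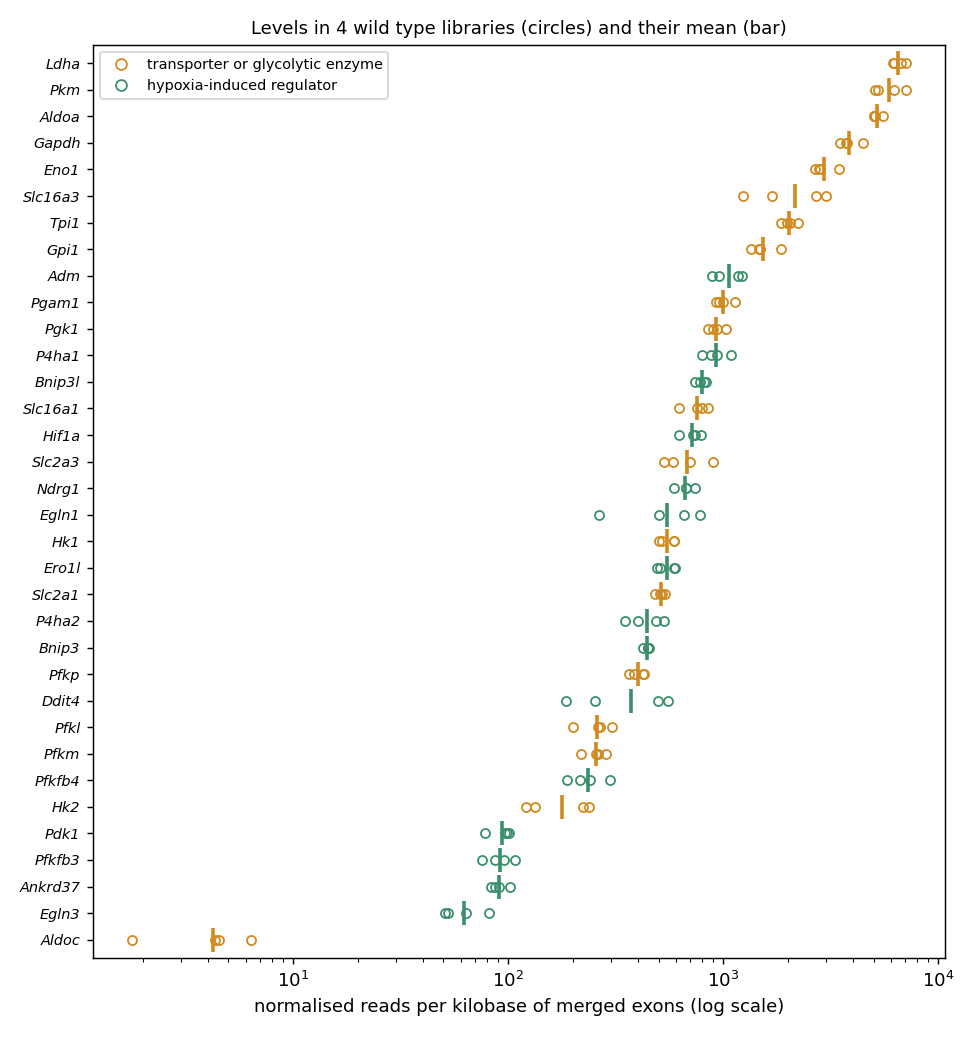
Levels of the 34 members in the 4 wild type libraries of the ANXA5 table, in normalised reads per kilobase of merged exons on a log axis; circles are libraries, bars their mean, and colours the class. Ldha at 6532, Pkm at 5893 and Aldoa at 5178 lie at the top, and Egln3 at 62 and Aldoc at 4.26 at the bottom.

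Effects of the ANXA2 knockout were asked of the enzymes and transporters first. None passed the test across all genes (limma on the log2 scale, adjusted p under 0.05): 0 of the 34 members were called, where 18 of 16123 genes tested were (0.112%). The smallest adjusted p of a member was 0.335, that of Pgk1, and edgeR called 0 members (0.13% of all genes). DESeq2 called 1, Pgk1 (adjusted p = 0.0176; 0.645% of all genes with an adjusted p), which was also the 1 member called in the authors' deposited table (adjusted p = 0.0251), where 0.593% of genes with an adjusted p were called. At an unadjusted p under 0.05, 5 members were higher (against 4.65% of all tested genes) and 0 lower (against 4.04%). The 5 were Pgk1, Hk2, Pfkl, Pfkfb3 and Ddit4. Leaving out knockout library 1, wild type library 1 or wild type library 2 brought the count of higher members to 2. It became 4 without knockout library 3 or 4, and 7 without wild type library 4. The count of lower members became 1 without knockout library 4 or wild type library 1.

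In the 19 transporters and enzymes the differences were small and mostly upward in the ANXA2 knockout. Of these, 16 had a log2 difference (knockout minus wild type, of the value + 1) above 0, with a median of 0.17, where 54.1% of all tested genes lay above 0 with a median of 0.023. In 5 of them, Pgk1, Pfkl, Eno1, Ldha and Aldoa, the 3 knockout libraries lay above all wild type libraries (4.56% of all tested genes did), and in 0 below them (4.63%). The 3 members below 0 were Pfkm, Slc16a1 and Aldoc. The median deviation of the class from the wild type mean was 0.18, 0.17 and 0.20 in knockout libraries 1, 3 and 4. In the wild type it was -0.12, -0.048, 0.034 and 0.18, so that wild type library 4 lay within the range of the knockout. Wild type library 1 was the lowest of the 7 libraries for 10 of the 19 genes. The share of all tested genes that were lowest there was not counted. Of the marker lists in the same comparison, 10 of 10 neutrophil (median 0.20), 10 of 12 stromal (0.21), 8 of 10 endothelial (0.21) and 7 of 12 macrophage markers (0.054) lay above 0, but 1 of 10 erythroid (-0.45) and 2 of 10 proliferation markers (-0.037). Their part in the members' values was not tested.

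Pgk1 (ENSMUSG00000062070.13, chromosome X), the phosphoglycerate kinase that makes the first ATP of the pathway, had 2605, 2533 and 2612 normalised reads in knockout libraries 1, 3 and 4, and the wild type libraries had 1743, 1923, 1817 and 2115. All knockout libraries stood above the highest wild type library, and they lay closer together than the wild type. The means were 2583 ± 43.4 (SD, n = 3) and 1900 ± 162 (SD, n = 4), a log2 difference of 0.45 (SE 0.0989, 95% interval 0.22 to 0.67, limma adjusted p = 0.335). With Xist as a covariate the difference was 0.47 (limma adjusted p = 0.059). Leaving out single libraries gave differences of 0.41 to 0.50 with a limma adjusted p of 0.328 to 0.905.

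Hk2, which traps glucose as its phosphate, had 2020, 1089 and 1754 normalised reads in the ANXA2 knockout and 658, 724, 1286 and 1207 in the wild type. Knockout library 3 lay below wild type libraries 3 and 4, so the groups overlapped. The log2 difference was 0.76 (95% interval 0.10 to 1.42, limma adjusted p = 0.564). Hk1 stood at 4837, 5349 and 4577 against 3911, 4035, 4554 and 4580, a difference of 0.21 (95% interval -0.041 to 0.45). By reads per kilobase Hk2 made up 22.5 to 37.4% of the sum of both hexokinases in the knockout and 19.4 to 28.7% in the wild type.

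Phosphofructokinase, which commits sugar to glycolysis, is built from 3 kinds of subunit. Pfkl, the liver type, had 1994, 2021 and 1869 normalised reads in the ANXA2 knockout against 1226, 1621, 1586 and 1851, so the groups were separate, with knockout library 4 and wild type library 4 close together. Its log2 difference was 0.33 (95% interval 0.017 to 0.65, limma adjusted p = 0.571). Pfkm, the muscle type, had 724, 816 and 638 against 873, 783, 794 and 667, a difference of -0.10 (95% interval -0.40 to 0.20). Pfkp, the platelet type, had 7143, 4968 and 4273 against 5232, 4718, 5132 and 4461. Its difference of 0.13 rested on knockout library 1 and was -0.082 without it.

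Of the remaining enzymes, 3 had separate groups in the ANXA2 knockout. Eno1, the enolase, ranged from 17234 to 17449 normalised reads in the ANXA2 knockout and from 13183 to 16869 in the wild type (log2 difference 0.28, 95% interval -0.0087 to 0.57). Ldha ranged from 21814 to 23175 against 18553 to 21301 (0.20) and Aldoa from 14875 to 16570 against 13359 to 14751 (0.18). In these 3, wild type library 4 was the wild type library nearest to the knockout. Gapdh, often used as a reference gene, ranged from 12855 to 16612 against 13193 to 16875 (0.025, 95% interval -0.29 to 0.34). Pkm (0.18), Pgam1 (0.17), Gpi1 (0.17) and Tpi1 (0.12) had overlapping groups, and so did Aldoc at 5.1 to 16.9 against 5.3 to 19.1.

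Of the transporters, which move glucose in and lactate out, Slc2a1 had 2386, 1501 and 1587 normalised reads in the ANXA2 knockout and 1658, 1549, 1708 and 1622 in the wild type. Knockout library 1 was the highest and the other 2 were within or below the wild type range, and the log2 difference of 0.13 was -0.082 without it. Slc2a3 had 3790, 4673 and 5331 against 3498, 3877, 4606 and 5894 (0.056, 95% interval -0.38 to 0.49). Slc16a3 ranged from 10160 to 14324 against 6023 to 14434 (0.33) and Slc16a1 from 2429 to 3448 against 2500 to 3410 (-0.12). The groups of all 4 transporters overlapped.

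**Figure D2:**
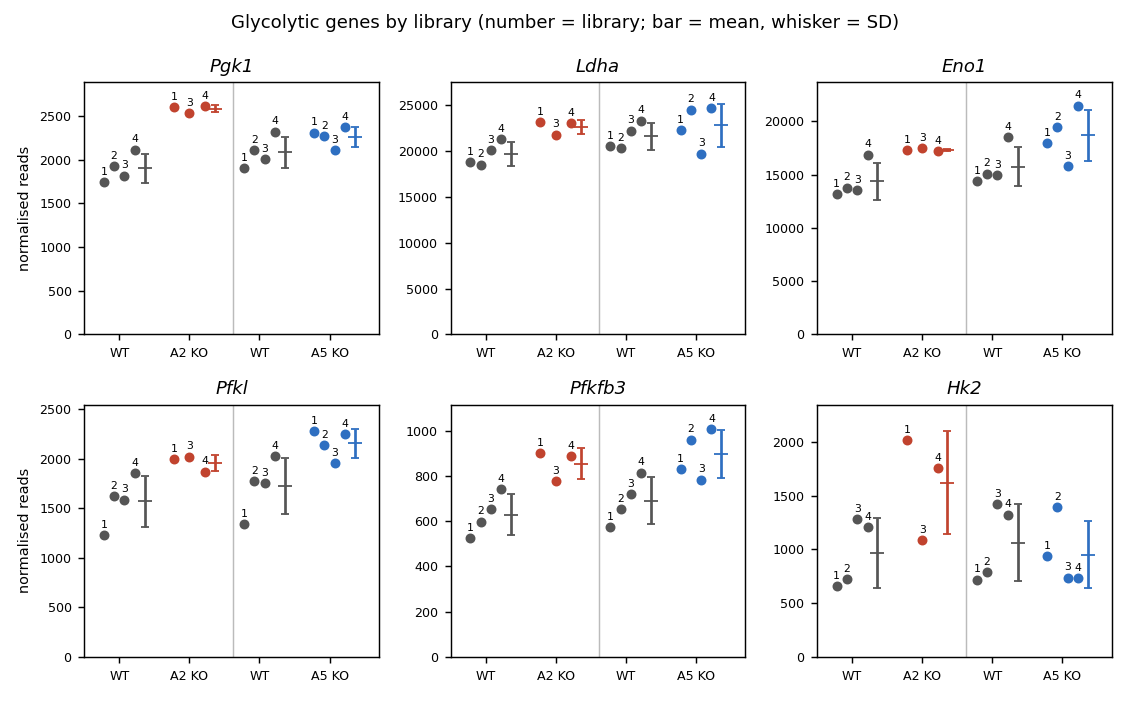
Normalised reads of 6 genes by library, each knockout beside the wild type of its own table (left of the grey line the ANXA2 table, right of it the ANXA5 table); points are libraries with their number, bars the mean and whiskers the SD, and axes start at 0. The 3 ANXA2 knockout libraries of Pgk1 lie at 2533 to 2612, above the 1743 to 2115 of the wild type, while those of Hk2 overlap with it.

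The median of the 15 hypoxia-induced regulators was high in 1 of the 3 ANXA2 knockout libraries. A log2 difference above 0 was found for 13, with a median of 0.26, and 0 passed the test (smallest limma adjusted p 0.518). The median deviation of the class was 0.50 in knockout library 1 but 0.047 and 0.041 in libraries 3 and 4, and it ranged from -0.062 to 0.064 in the wild type. Library 1 was the highest of the 7 libraries for 8 of the 15 genes, and also for 7 of the 19 transporters and enzymes. The share of all tested genes that were highest in library 1 was not counted. Without library 1, 8 of 15 regulators lay above 0 with a median of 0.025, while the median of the transporters and enzymes was 0.19 with 14 of 19 above 0. Over all members, 29 of 34 lay above 0 with every library and 22 without library 1.

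**Figure D3:**
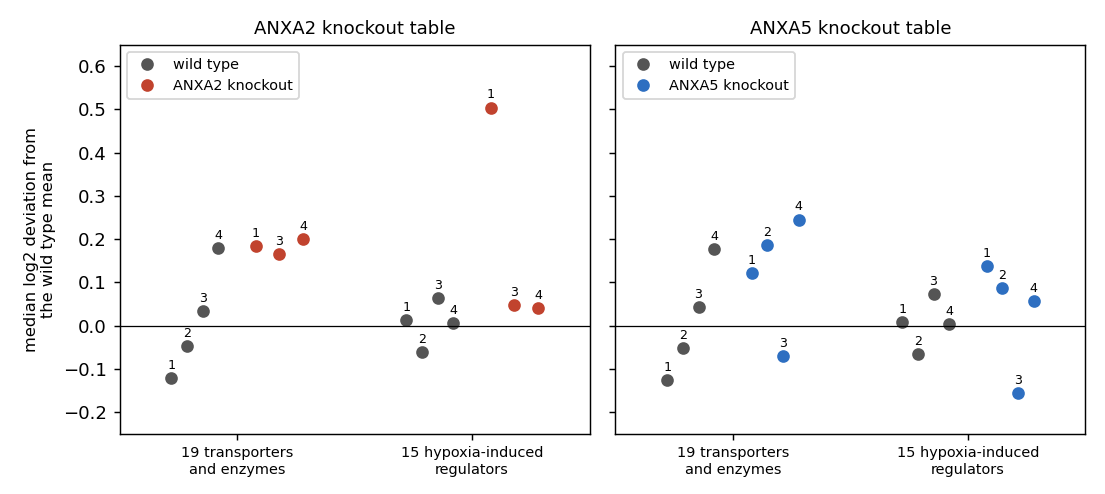
Median log2 deviation of each class from the wild type mean, by library, with the ANXA2 table on the left and the ANXA5 table on the right; each point is a library with its number. ANXA2 knockout library 1 stands at 0.50 for the hypoxia-induced regulators, and the other 2 at 0.047 and 0.041, within the wild type range of -0.062 to 0.064.

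The genes that set library 1 apart, chosen after their values were seen, included a sensor and mitochondrial and stress genes. Egln3, the prolyl hydroxylase that is itself induced by HIF, had 724, 122 and 152 normalised reads in the ANXA2 knockout and 198, 154, 122 and 128 in the wild type (log2 difference 0.68, 95% interval -0.54 to 1.91). Bnip3, a mitochondrial receptor for mitophagy, had 1810, 968 and 834 against 924, 925, 927 and 872 (0.32). Ndrg1, a stress-responsive gene, had 8206, 4127 and 4884 against 4030, 3552, 4420 and 4021 (0.46). In these 3, library 1 stood above every other library. For Bnip3 the other knockout libraries lay just above and just below the wild type range. P4ha2, a prolyl hydroxylase of collagen, had 4338, 3083 and 2223 against 3040, 2284, 2748 and 1979 (0.32). Without library 1 the log2 difference was -0.12 for Egln3, -0.021 for Bnip3, 0.17 for Ndrg1 and 0.079 for P4ha2.

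Marker sums of library 1 were low within its group. The summed neutrophil markers stood at 273152 normalised reads there, and at 410598 and 660324 in knockout libraries 3 and 4, against 293908 to 523071 in the wild type. The summed stromal markers stood at 564680, 870046 and 680310 against 394379 to 764366, and the summed proliferation markers at 13426, 20285 and 24506 against 16650 to 22751. Library 1 was the lowest of its group in these 3 sums, below the wild type range for neutrophil and proliferation markers and within it for stromal markers. Library 1 was also the lowest of its group for macrophage (82375), erythroid (15759) and endothelial markers (3757). The wild type minima of these sums were 79227, 16945 and 3968. Anxa2 itself was the highest of the group there, at 10427 normalised reads against 8041 and 7159. The part of these differences in the values of the hypoxia-induced genes was not tested.

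The switches of glycolytic flux differed in direction. Pfkfb3, which makes the fructose bisphosphate that activates phosphofructokinase, had 900, 778 and 888 normalised reads in the ANXA2 knockout and 524, 599, 653 and 744 in the wild type. The groups were separate and all 3 knockout libraries were high, at 855 ± 67 (SD, n = 3) against 630 ± 92.3 (SD, n = 4), a log2 difference of 0.45 (SE 0.137, 95% interval 0.14 to 0.76, limma adjusted p = 0.518). Pfkfb4, its relative, ranged from 1112 to 1506 against 840 to 1324 (0.26). Pdk1, the kinase that keeps pyruvate out of mitochondria, ranged from 498 to 585 against 552 to 712 (-0.28, 95% interval -0.57 to 0.0037). Wild type library 1, at 552, was the only wild type library within the range of the knockout.

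Ddit4, an inhibitor of the growth kinase complex mTORC1, had 837, 1240 and 884 normalised reads in the ANXA2 knockout and 298, 408, 794 and 882 in the wild type. Wild type libraries 1 and 2 were low and libraries 3 and 4 near the knockout, so the groups overlapped (log2 difference 0.85, 95% interval 0.018 to 1.67, limma adjusted p = 0.573). The low wild type libraries 1 and 2 had 1829 and 1997 normalised reads of Xist, and libraries 3 and 4 had 1.16 and 0.959. Knockout libraries 1, 3 and 4 lay between these, at 652, 226 and 203. With Xist as a covariate, Ddit4 was the 1 member called (difference 1.14, limma adjusted p = 0.0258), in a fit that called 284 of all tested genes (1.76%). Egln1, the main oxygen sensor, was lowest in wild type library 1 as well, with 3070, 2554 and 2358 against 866, 1648, 2533 and 2157 (0.66, 95% interval -0.070 to 1.39).

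Hif1a, the oxygen-regulated subunit of HIF, whose protein is controlled mainly after translation, had 4487, 3785 and 3319 normalised reads in the ANXA2 knockout and 4253, 3897, 3945 and 3358 in the wild type. The groups overlapped fully, with a log2 difference of -0.0057 (95% interval -0.31 to 0.29). Adm, a vasodilating peptide, had 1853, 1855 and 1487 against 1733, 1316, 1798 and 1410 (0.15, 95% interval -0.18 to 0.48). The other regulators, Bnip3l (a mitophagy receptor, 0.0025), Ero1l (an oxidase of the endoplasmic reticulum, 0.014), Ankrd37 (0.065) and P4ha1 (a collagen prolyl hydroxylase, 0.084), had overlapping groups and small differences.

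**Figure D4:**
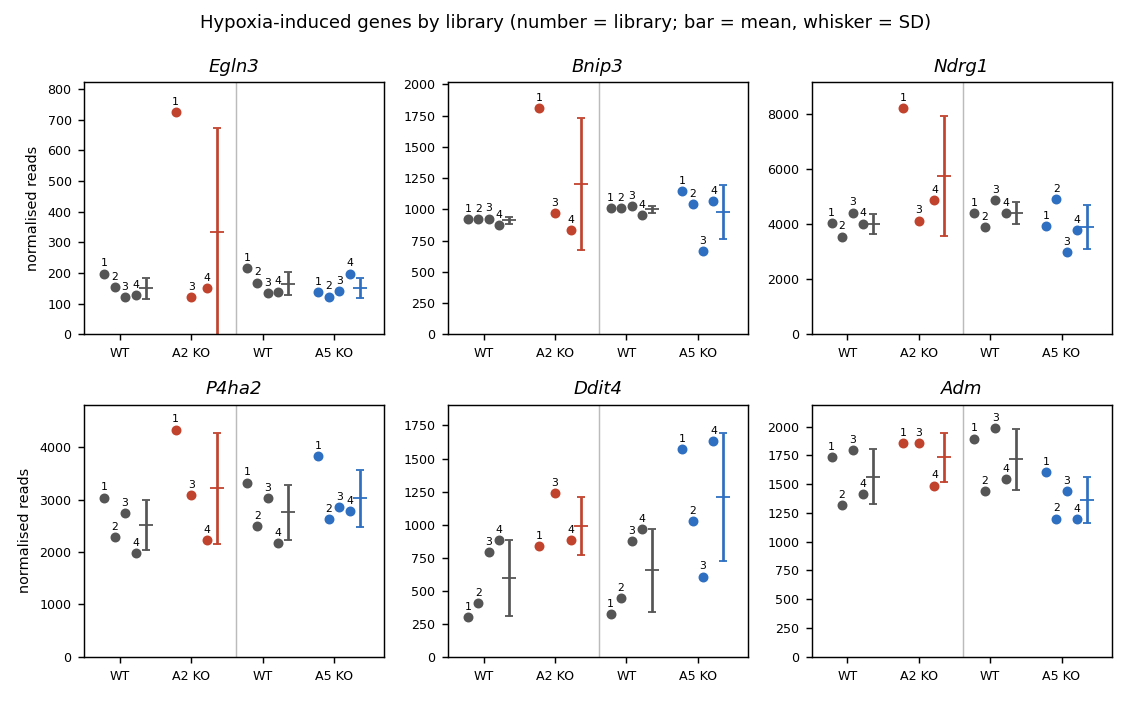
Normalised reads of 6 hypoxia-induced genes by library, laid out as for the glycolytic genes, with means, SD whiskers and axes from 0; the lower whisker of Egln3 in the ANXA2 knockout would pass below 0. ANXA2 knockout library 1 stands apart for Egln3 (724 against 122 and 152), Bnip3 and Ndrg1, and wild type libraries 1 and 2 are low for Ddit4.

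In the ANXA5 knockout, too, 0 of 34 members passed the limma test, where 5 of 16224 genes did (0.0308%), and the smallest adjusted p was 0.326, that of Pfkfb3. Of the members 0 were called by edgeR (0.0308% of all genes), by DESeq2 (1.89% of genes with an adjusted p), by limma with Xist as a covariate (0.037%) and in the authors' deposited table (1.76%). At an unadjusted p under 0.05, 5 members were higher (against 6.48% of all tested genes), namely Pfkfb3, Gpi1, Pfkl, Pgam1 and Ddit4, and 2 were lower (against 5.45%), namely Adm and Pfkm. In 0 members did the groups separate, upward (3.01% of all tested genes) or downward (3.36%). The count of 5 became 2 without knockout library 1 or 4, 3 without knockout library 2 or wild type library 1, 7 without knockout library 3, and 8 without wild type library 4. The count of 2 lower members became 1 without knockout library 1, 2 or 4 or wild type library 1 or 2. It became 0 without the wild type's library 3, and 4 when its library 4 was left out.

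Of the transporters and enzymes, 14 of 19 lay above 0 in the ANXA5 knockout, with a median log2 difference of 0.11, where 52% of all tested genes lay above 0 with a median of 0.011. The class stood at 0.12, 0.19, -0.071 and 0.25 in knockout libraries 1 to 4 and the wild type libraries at -0.13, -0.051, 0.043 and 0.18. Knockout library 3 thus lay among the wild type, and without wild type library 4 the median was 0.17. Of the hypoxia-induced regulators 8 of 15 lay above 0 with a median of 0.057, a value that was 0.11 without knockout library 3 and -0.023 without knockout library 1. The class stood at 0.14, 0.088, -0.16 and 0.057 in knockout libraries 1 to 4. Over all members 22 of 34 lay above 0.

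Most markers of blood and endothelial cells had higher means as well. All 12 macrophage, all 10 neutrophil and all 10 erythroid markers lay above 0 in the ANXA5 knockout (medians 0.40, 0.36 and 0.55), 0 of them past the test. The summed neutrophil markers ranged from 451287 to 627155 normalised reads against 321436 to 573573 in the wild type, and the macrophage sum from 121083 to 152719 against 86648 to 131859. The erythroid sum ranged from 47514 to 83289 against 18533 to 68957. Of the 10 endothelial markers 9 lay above 0, with a median of 1.15 and sums of 5381 to 8089 against 4343 to 5575. The lowest log2 difference among them was -0.48. Tek, with the highest mean of the 10 in both groups, averaged 1734 normalised reads in the knockout against 2481. In 5 the groups were separate upward (3.01% of all tested genes). Of the 10 endothelial markers limma called 0. DESeq2 and the authors' deposited table called 4 each, where 1.89% and 1.76% of genes with an adjusted p were called. All 10 proliferation markers lay above 0 (median 0.31), with sums of 23196 to 29265 against 18209 to 24948, and of 12 stromal markers 7 did (0.15). The part of these cells in the members' values was not tested.

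Gpi1, which turns glucose phosphate into fructose phosphate, had 13459, 12905, 10669 and 13632 normalised reads in ANXA5 knockout libraries 1 to 4 and 8678, 9486, 9523 and 12000 in the wild type. Only knockout library 3 lay below wild type library 4, and the log2 difference was 0.36 (SE 0.124, 95% interval 0.079 to 0.63, limma adjusted p = 0.336). Pfkl had 2282, 2133, 1959 and 2250 against 1341, 1775, 1752 and 2029, a difference of 0.34 (95% interval 0.062 to 0.61, limma adjusted p = 0.347). Pfkm had 704, 727, 768 and 686 against 955, 857, 877 and 731, a difference of -0.24 (95% interval -0.46 to -0.022, limma adjusted p = 0.381). Pfkp, at 4551, 4947, 4270 and 5287 against 5722, 5164, 5668 and 4892, stood at -0.17.

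As a share of the reads per kilobase of the 3 phosphofructokinases, Pfkl made up 34.8 to 38.3% in the ANXA5 knockout and 22 to 34.2% in the wild type, without overlap. Pfkp made up 37.8 to 42.1% against 41.1 to 46.7%, and Pfkm 21.9 to 27.3% against 24.7 to 31.3%. In the ANXA2 knockout the share of Pfkl was 28.5 to 35.4%, which overlapped with the wild type. These shares depend on the merged exon lengths, were computed after the values were seen and are given with no test.

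Pgam1, the phosphoglycerate mutase, had 2259, 2216, 2206 and 2426 normalised reads in the ANXA5 knockout and 1826, 1979, 1893 and 2238 in the wild type. All but wild type library 4 lay below the knockout, and the log2 difference was 0.20 (95% interval 0.014 to 0.39, limma adjusted p = 0.393). Pgk1 had 2309, 2265, 2108 and 2376 against 1906, 2105, 2006 and 2320, a difference of 0.12 (95% interval -0.065 to 0.31). Hk2 had 940, 1396, 738 and 732 against 720, 792, 1420 and 1323 (-0.15, 95% interval -0.74 to 0.45), and Hk1 4956, 4847, 4763 and 5541 against 4277, 4417, 5030 and 5022 (0.10). The groups of these hexokinases overlapped widely. Of the transporters, Slc2a1 had 1818, 1907, 1443 and 2046 against 1813, 1696, 1887 and 1779 (-0.0031), and Slc2a3 5105, 6088, 3792 and 6090 against 3826, 4244, 5087 and 6463 (0.11). The remaining enzymes and carriers lay between -0.16 for Slc16a1 and 0.70 for Aldoc, the latter at 18.7 to 22.9 against 5.8 to 20.9 normalised reads.

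Among the regulators, Pfkfb3 had 830, 961, 784 and 1009 normalised reads in the ANXA5 knockout and 574, 655, 722 and 815 in the wild type. Knockout library 3 lay below wild type library 4, the only overlap, and the log2 difference was 0.38 (SE 0.128, 95% interval 0.093 to 0.66, limma adjusted p = 0.326). Ddit4 had 1574, 1026, 607 and 1632 against 326, 446, 877 and 967, a difference of 0.92 (95% interval 0.036 to 1.81, limma adjusted p = 0.407). Knockout library 3 was low and lay within the wild type. Xist stood at 783, 2.07, 1676 and 528 normalised reads in ANXA5 knockout libraries 1 to 4, highest in library 3. With Xist as a covariate the difference of Ddit4 was 1.07 (limma adjusted p = 0.182). The cause of the low values in library 3 was not tested. Adm had 1605, 1201, 1436 and 1194 against 1896, 1440, 1986 and 1546, a difference of -0.34 (95% interval -0.64 to -0.034, limma adjusted p = 0.377). Hif1a had 3493, 3895, 3790 and 4033 against 4651, 4265, 4357 and 3682 (-0.15, 95% interval -0.36 to 0.05), with 3 of 4 wild type libraries above the whole knockout. Egln3 (-0.13), Bnip3 (-0.061) and Ndrg1 (-0.19) showed no library like ANXA2 knockout library 1, and the other regulators lay between -0.20 for Pdk1 and 0.24 for Egln1.

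**Figure D5:**
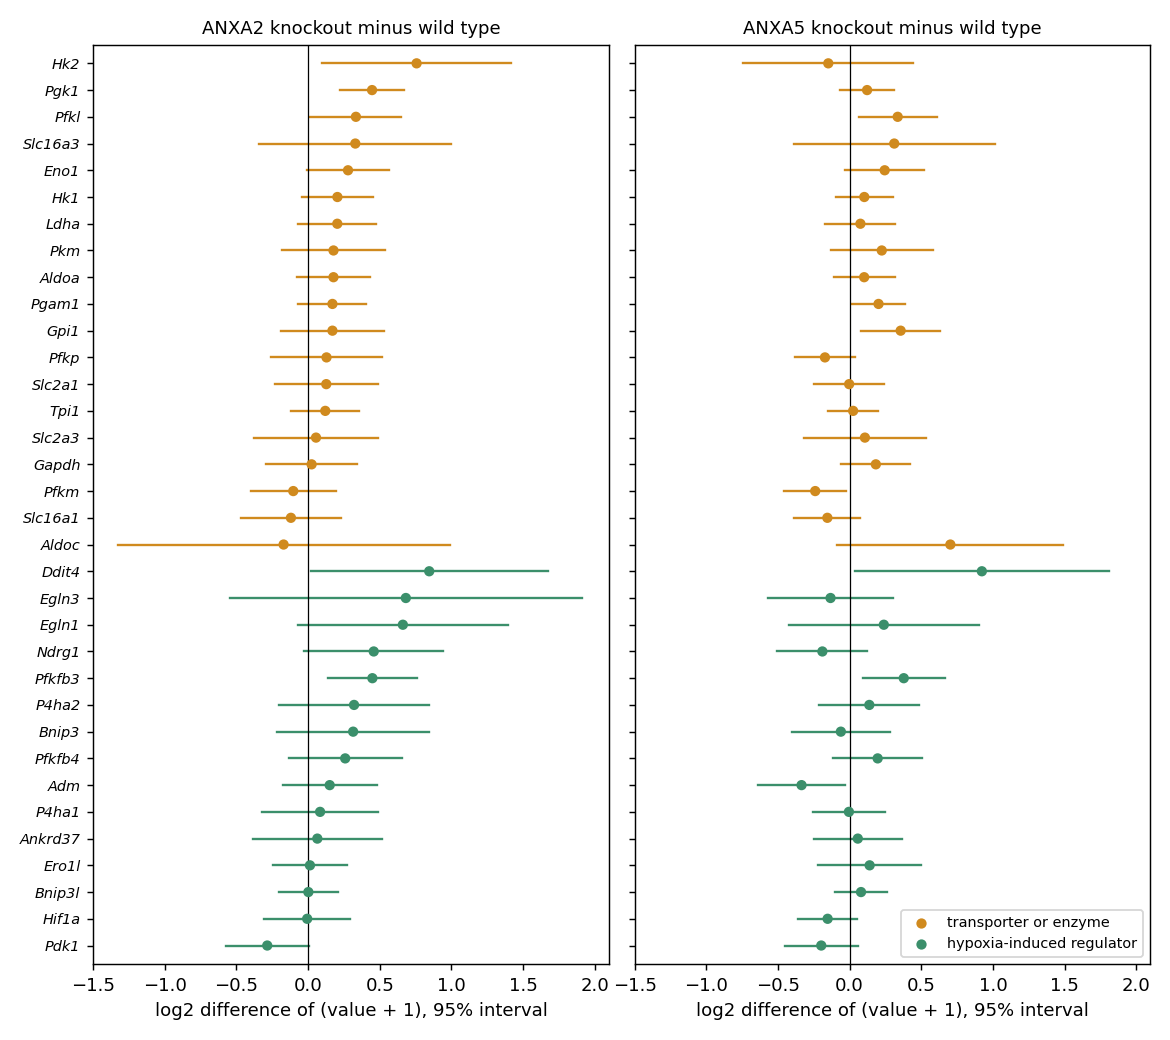
Log2 difference (knockout minus wild type, of the value + 1) of every member with its 95% interval, by comparison; colours give the class and the vertical line is 0. Pgk1 at 0.45 and Pfkfb3 at 0.45 in the ANXA2 knockout have intervals above 0, but no member passed the threshold after adjustment in either comparison.

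Both comparisons use the same wild type libraries, so their differences are not independent: Pfkfb3 stood at 0.45 and 0.38, Pfkl at 0.33 and 0.34, Ddit4 at 0.85 and 0.92, Pgk1 at 0.45 and 0.12, Hk2 at 0.76 and -0.15 in the ANXA2 and ANXA5 knockouts. The knockouts were set against each other on jointly scaled reads with edgeR. Of the 34 members 0 differed (smallest adjusted p 0.177), where 44 of 16722 genes did (0.263%), and limma on the same scale called 0 members too (0.269% of all genes). An unadjusted edgeR p under 0.05 was found for 5 of the 34 members, a share near the 13.9% of all genes. All 5 were higher in the ANXA2 knockout, and the directions over all genes were not counted. Pgk1 stood at 97.8 ± 1.9 CPM (reads per M; SD, n = 3) in the ANXA2 and 78.7 ± 3.17 (SD, n = 4) in the ANXA5 knockout, without overlap, a log2 difference of 0.31 (edgeR adjusted p = 0.177). Adm, at 65.5 ± 7.76 against 47.3 ± 7.17 CPM, was separate as well (0.47, edgeR adjusted p = 0.21). Hk2 (0.89), Ndrg1 (0.68) and Egln3 (1.26) had overlapping groups, and for the last 2 ANXA2 knockout library 1 was the high one. Aldoc was lower without overlap in the ANXA2 knockout, at 0.426 ± 0.222 against 0.743 ± 0.0616 CPM (edgeR adjusted p = 0.415). It rested on few reads, 5 to 19 against 18 to 28. The share of all genes without overlap was not counted for this contrast, so the separations of Pgk1, Adm and Aldoc are descriptions only.

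Other genes of the same pathways were read from lists made for them. In the ANXA2 knockout 0 of them passed limma. Of 30 other hypoxia-induced genes, 24 lay above 0 with a median of 0.18, among them Angptl4, an inhibitor of lipoprotein lipase, at 2954 ± 1126 normalised reads (SD, n = 3) against 1566 ± 412 (SD, n = 4; log2 difference 0.87), and Tfrc, the transferrin receptor, at -0.44. Of 12 other regulators of HIF, 10 lay above 0 with a median of 0.24. Cited2, which competes with HIF for its coactivator, stood at 3900 to 4326 against 2689 to 3653 (0.38). Of 18 other isozymes and side steps 13 lay above 0, and Bpgm, which makes the bisphosphoglycerate of red cells, stood at 484 to 602 against 603 to 1420 (-0.84). Erythroid markers, of which 1 of 10 lay above 0, had a median of -0.45 in the same comparison, and their part in the value of Bpgm was not tested. Of 13 pyruvate oxidation genes 8, of 8 pentose phosphate genes 5 and of 12 gluconeogenesis and glycogen genes 9 lay above 0.

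In the ANXA5 knockout 0 genes of these lists passed limma either. Angptl4 had the smallest p, at 3871 ± 639 normalised reads (SD, n = 4) against 1719 ± 453 (SD, n = 4), a log2 difference of 1.19 (limma adjusted p = 0.146), with separate groups. DESeq2 called it (adjusted p = 1e-05). Of the 30 other hypoxia-induced genes, 16 lay above 0 with a median of 0.038, including Gys1, the glycogen synthase (0.40), while Insig2, a regulator of sterol synthesis, stood at -0.27. Of 12 HIF regulators 9 lay above 0, with Hif3a at 37.3 to 66.8 against 13.9 to 41.2 (0.81). Of 18 isozymes 12 lay above 0, including Ldhb, the other lactate dehydrogenase subunit, at 377 to 388 against 307 to 348 (0.23), and Hk3, a hexokinase of blood cells, at 0.47. Of 8 pentose phosphate genes 7 lay above 0, with G6pdx at 0.22 and Taldo1 at 0.28. Pyruvate oxidation genes lay above 0 in 6 of 13, with Pdk4, a kinase of pyruvate dehydrogenase, at 0.93, Pdk2 at -0.24 and the phosphatase Pdp1 at -0.32. Of 12 gluconeogenesis and glycogen genes 7 lay above 0, with Fbp1 at 0.75 and Ugp2 at -0.30.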

How the data were processed

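The signal values in the tables the authors deposited are read counts divided by a DESeq2 size factor of each library, with 1 table per knockout that also holds the wild type. Tools named in the submitters' processing notes are STAR, HTSeq, Trim Galore and DESeq2, on build GRCm39, with versions not given in the sources used here. Multiplied by that factor, 100% of the signal values of the deposited tables gave whole reads within 0.001. Scores the authors deposited (the test statistic, per the file headers) were not used. The log2 fold changes and the p-values of the authors' deposited tables are those of DESeq2 per the file headers, knockout minus wild type. The deposited tables list values of 0 in 1 library each: 188 genes in wild type library 4 of the ANXA2 table and 412 in wild type library 3 of the ANXA5 table. Genes at 0 in any other library are not in them and could not be tested.

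Log2 (value + 1) was fitted with limma-trend. A gene was tested where at least n libraries reached a value of 10, n being the size of the smaller group. Two-sided p-values received the Benjamini-Hochberg adjustment across every gene tested, and 0.05 was the threshold. All 34 members passed the filter in both tables. The knockouts were compared with edgeR's quasi-likelihood test on recovered reads of all 11 libraries, scaled together by TMM. Tool versions were limma 3.58.1, DESeq2 1.42.0 and edgeR 4.0.16, run under R 4.3.3, and the scripts were tested on simulated data.

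The members and lists were chosen with earlier results of these data known. Values of every library are given for members with an unadjusted limma p under 0.05 in the comparison concerned. They are also given for Hif1a, Hk1, Hk2, Slc2a1, Slc2a3, Pfkl, Pfkm and Pfkp, and for some members chosen after their values were seen. Of other lists, up to 3 genes with the smallest p are named. Lists are described by counts and medians, without a set test. Lengths came from GENCODE vM21 on GRCm38, and promoters from RefSeq on GRCm38.p6; neither is the build of the submitters. Alternatives were TMM scaling, edgeR, DESeq2, pseudocounts of 0.5 and 5, no filter, a minimum of 50, Xist as a covariate, a replicate block and leaving out each library; 0 sample columns were left out.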

Additional observations from a re-analysis of the deposited data

Results flagged for a closer look

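In 102 groups of 4 libraries (34 genes, the wild type in each table and the ANXA5 knockout), 6 libraries stood far from the other 3 by Dixon's criterion, and chance flags about 1 in 20 groups. All 6 were wild type libraries. Aldoa was highest in wild type library 4, at 14751 normalised reads against 13359 to 13443 in the ANXA2 table and at 16175 against 14622 to 14847 in the ANXA5 table. Eno1 was highest in the same library, at 16869 against 13183 to 13781 and at 18498 against 14418 to 15085. Pdk1 was lowest in wild type library 1, at 552 against 685 to 712, and Bnip3 in wild type library 4, at 872 against 924 to 927, both in the ANXA2 table. The wild type libraries are the same in both tables, so the paired values for Aldoa and Eno1 are 1 observation each. The criterion was applied to groups of 4 only, so the 3 ANXA2 knockout libraries, library 1 among them, were not judged by it.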

How the results depend on the processing

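The count of 0 members called in the ANXA2 knockout became 1 with DESeq2 (Pgk1, log2 0.4344) and 1 with Xist as a covariate (Ddit4, 1.1434), and stayed 0 under TMM scaling, edgeR, both pseudocounts, no filter, a minimum of 50 and without each library. In the ANXA5 knockout and between the knockouts it was 0 in every setting run. In the ANXA2 knockout, leaving out single libraries gave medians of 0.1337 to 0.2301 for transporters and enzymes, the lowest without wild type library 1. For hypoxia-induced regulators the medians were 0.0255 to 0.3249, the lowest without knockout library 1. In the ANXA5 knockout the medians of these classes, in the same order, were 0.0739 to 0.1747 and -0.023 to 0.1137.

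Of the values of single members in both comparisons, 1034 kept direction and call, 2 became called (Pgk1 and Ddit4, above) and 50 turned sign; the cause was not tested. Leaving out single libraries in the ANXA2 knockout gave -0.1183 to 1.1632 for Egln3 and -0.0215 to 0.537 for Bnip3, both lowest without knockout library 1, and -0.5082 to 0.2673 for Aldoc. It gave -0.119 to 0.0984 for Hif1a, -0.0816 to 0.289 for Pfkp, -0.0819 to 0.2524 for Slc2a1, -0.0577 to 0.1987 for Slc2a3 and -0.1256 to 0.2151 for P4ha1. For Ankrd37 it gave -0.0728 to 0.2726, for Gapdh -0.0621 to 0.1228, for Ero1l -0.0532 to 0.0687 and for Bnip3l -0.0284 to 0.0277. Ero1l also turned to -0.002 with edgeR, and Bnip3l to -0.0075 with DESeq2, -0.0072 with TMM, -0.0142 with Xist and -0.0131 with edgeR. In the ANXA5 knockout leaving out single libraries gave -0.0789 to 0.4418 for Egln1 (lowest without wild type library 1), -0.3506 to 0.0113 for Hk2, -0.2735 to 0.0055 for Egln3, -0.1462 to 0.1137 for Bnip3 and -0.0029 to 0.2564 for Slc2a3. It gave -0.0676 to 0.1002 for Slc2a1, -0.0773 to 0.0752 for P4ha1, -0.023 to 0.1154 for Ankrd37 and -0.0162 to 0.0694 for Tpi1. There Hk2 also turned to 0.0021 with Xist as a covariate, and Slc2a1 to 0.0051 with DESeq2, 0.0172 with Xist and 0.0008 with edgeR.

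The replicate block, for which numbers pair the ANXA5 knockout with the wild type, gave 0 calls and medians of 0.1068 and 0.0571. Same-numbered libraries correlated at 0.049, -0.075, -0.252 and 0.067 after group means were removed, so the numbers were not taken to pair them. For the ANXA2 knockout no paired analysis was possible because its column numbers are not those of the titles. With 3 or 4 libraries a group, differences of the size seen here lie within the intervals of most members.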
